A study of Mus musculus with 8 samples.

Results

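The 10 genes described here encode galectins, S100 proteins and the annexin, AHNAK, vimentin and LIM-domain proteins that often accompany them in lymphocytes that have met antigen: Lgals1, Lgals3, S100a4, S100a6, S100a10, S100a11, Anxa2, Ahnak, Vim and Crip1. A row of the deposited table was taken for a gene where the platform annotation gave that symbol alone. All 10 genes were found, on 11 of 21640 such probe sets, which stand for 19937 genes. Where a gene had more than 1 probe set, as S100a11 did, the probe set was chosen by its mean log2 level over the 8 arrays, the highest being taken. Levels are therefore given as a description, and levels of different probe sets cannot be ranked because probes differ in affinity. The genes were proposed with earlier results of these data known.

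The arrays measured total RNA of spleen cells sorted for CD22 and B220, which are surface proteins of B cells, from adult CBAxC57BL/6J mice. In 4 Sca1-HGAL samples the mice carried HGAL (GCET2), a human adaptor protein of germinal centre B cells, driven by the Sca1 (Ly-6E.1) promoter. That promoter is also active in blood stem and progenitor cells, so expression need not be limited to B cells. The labels call the genotype knock-in and the design text calls the mice transgenic. The 4 Control samples came from wild-type littermates. Nothing in the labels gives sex, litter, founder line or batch, or says whether the samples of a group came from different mice. The p-values then reflect only how these samples vary, which may be technical. Each sample was hybridised to 1 Affymetrix Mouse Gene 1.0 ST array. Values are log2 intensities, and a log2 fold is the Sca1-HGAL mean minus the Control mean.

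Galectins are lectins that bind galactose-containing sugars, and some act outside the cell on the glycoproteins of immune cells. Most S100 proteins are small calcium-binding proteins that change the behaviour of their partners when calcium rises. S100a10 pairs with annexin A2, a calcium-dependent membrane-binding protein, and that pair binds the very large scaffold protein AHNAK beneath the plasma membrane. Genes of this kind are known to be higher in memory and effector lymphocytes and in innate-like B-1 cells than in naive cells, and are also strongly expressed in myeloid cells.

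Array medians ran from 145.2 to 151.4 on the intensity scale. Of 9 B-cell markers 8 were measured, all above log2 6, and their mean level was 12.77 to 12.83 on Control and 12.71 to 12.76 on Sca1-HGAL arrays, 2 ranges that do not overlap. The human transgene was not measured by a named probe set, and the log2 fold of its mouse counterpart Gcsam was -0.29 (SE 0.17), at a limma adjusted p = 0.62, and -0.02 without the Control 2 and Control 4 arrays described next. Control 2 and Control 4 stood apart by sex-linked genes. Xist, which is made from an inactive X chromosome, was there at 12.17 and 12.18 against 5.28 to 5.65 on the other 6 arrays, so results are given with and without them. Sca1-HGAL 3 lay among the Control arrays on the first principal component of the log2 values, at -8.1 against -12.0 to -6.0, and Sca1-HGAL 1 lay farthest from them, at 29.3. With 4 arrays a group, precision is low.

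Anxa2 and Ahnak had the largest differences among the 10 genes, and they were the 2 whose groups did not overlap. Neither passed the test over all probe sets, limma with an adjusted p under 0.05, which called 1 probe set or 0.00462% of those tested. Over all probe sets, 3.15% lay wholly higher in Sca1-HGAL and 2.3% wholly lower. Nothing about the genes is read from these shares, since the genes were proposed with results known.

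Anxa2, which encodes annexin A2, was 6.78, 6.81, 7.0 and 7.0 on Control arrays 1 to 4, and 7.83, 8.52, 7.22 and 7.98 on Sca1-HGAL arrays 1 to 4. Every Sca1-HGAL array was above every Control array, with Sca1-HGAL 2 the highest and Sca1-HGAL 3 only slightly above the Control range. The means were 6.90 ± 0.12 (SD, n = 4) and 7.89 ± 0.53 (SD, n = 4), a log2 fold of 0.99 (SE 0.22, 95% interval 0.51 to 1.48) or 1.99-fold, at a limma adjusted p = 0.18. Without Sca1-HGAL 3 the log2 fold was 1.21 and Anxa2 passed, at an adjusted p = 0.026, when 40 probe sets or 0.185% passed. Without Control 2 and Control 4 it was 1.00 (SE 0.30, adjusted p = 0.54). The Control level of Anxa2 is low for this platform. Nothing in the table says which probe sets were detected, which leaves the size of this fold uncertain.

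Ahnak, the scaffold gene, was 8.83, 8.49, 8.13 and 8.32 on Control arrays 1 to 4, and 9.38, 9.18, 9.03 and 8.99 on Sca1-HGAL arrays 1 to 4. The Sca1-HGAL arrays lay close together and above all Control arrays, of which Control 1 was the nearest. The means were 8.44 ± 0.30 (SD, n = 4) and 9.14 ± 0.18 (SD, n = 4), a log2 fold of 0.70 (SE 0.14, 95% interval 0.39 to 1.02) or 1.63-fold, at a limma adjusted p = 0.14. Ahnak was the one gene of the 10 whose values spread less over Sca1-HGAL than over Control arrays. Leaving out 1 array at a time gave log2 folds of 0.60 to 0.83 and adjusted p-values of 0.078 to 0.36, and leaving out Control 2 and Control 4 gave 0.67 (SE 0.19, adjusted p = 0.53).

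The promoters of Anxa2 and Ahnak are shown because these genes had the separated groups, that of Lgals3 because it had the next smallest p, and that of S100a11 because it holds the AP-1 motif of Anxa2 although its level hardly differed. RefSeq sequences of GRCm38.p6, 250 bases before the annotated start on the plus strand, were matched for 8 of the 10 genes. Every window used lay on its gene's own chromosome. Any window elsewhere was left out for the 10 genes but not from the windows of all promoters compared below. Capitals mark any of 5 motifs searched on both strands, each given by its letters: AP-1 (TGANTCA), the GC box (GGGCGG), the CACCC box (CACCC), the TATA box (TATAAA) and a T-box half-site (GGTGTGA).
Anxa2, chr9:69453433-69453682: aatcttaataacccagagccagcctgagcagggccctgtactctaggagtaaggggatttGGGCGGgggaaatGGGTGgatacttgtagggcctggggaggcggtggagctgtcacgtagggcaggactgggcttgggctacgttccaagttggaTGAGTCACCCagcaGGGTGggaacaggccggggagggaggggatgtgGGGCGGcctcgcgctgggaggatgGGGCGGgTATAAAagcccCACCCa
Ahnak, chr19:8989034-8989283: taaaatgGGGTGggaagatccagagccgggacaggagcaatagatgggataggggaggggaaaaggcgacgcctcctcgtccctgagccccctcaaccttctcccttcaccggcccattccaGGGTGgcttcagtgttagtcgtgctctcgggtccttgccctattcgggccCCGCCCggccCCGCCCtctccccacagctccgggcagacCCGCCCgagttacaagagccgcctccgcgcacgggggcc
Lgals3, chr14:47373610-47373859: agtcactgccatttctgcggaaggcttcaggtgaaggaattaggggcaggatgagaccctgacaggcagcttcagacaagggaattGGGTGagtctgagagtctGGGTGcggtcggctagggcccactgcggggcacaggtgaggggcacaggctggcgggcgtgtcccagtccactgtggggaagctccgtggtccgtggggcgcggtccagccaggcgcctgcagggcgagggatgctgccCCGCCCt
S100a11, chr3:93520246-93520495: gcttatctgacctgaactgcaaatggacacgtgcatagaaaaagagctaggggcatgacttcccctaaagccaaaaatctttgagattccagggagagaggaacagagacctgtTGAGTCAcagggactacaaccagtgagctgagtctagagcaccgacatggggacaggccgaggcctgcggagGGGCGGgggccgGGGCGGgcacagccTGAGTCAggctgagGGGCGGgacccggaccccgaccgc

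The Anxa2 window held AP-1 letters at 1 position, overlapping a CACCC box, and the S100a11 window at 2. Of the 8 windows, 2 held AP-1 letters, against 6.7% of 32851 promoter windows of the same length. GC boxes were in 5 of 8 windows (32.7% of all), CACCC boxes in 6 (52.0%), TATA boxes in 3 (12.4%) and T-box half-sites in 0 (3.3%). The Ahnak and Lgals3 windows held GC and CACCC boxes but no AP-1 or TATA letters. The S100a6 window held none of the 5. These matches describe letters in the windows and are not measured binding sites.

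S100a10, the partner of annexin A2, was 12.15, 12.30, 12.11 and 12.19 on Control arrays 1 to 4, and 12.39, 12.23, 12.10 and 12.13 on Sca1-HGAL arrays 1 to 4. The groups overlapped almost completely, and only Sca1-HGAL 1 was above all Control arrays. The means were 12.19 ± 0.08 (SD, n = 4) and 12.21 ± 0.13 (SD, n = 4), a log2 fold of 0.03 (SE 0.08, 95% interval -0.15 to 0.20) at a limma adjusted p = 0.95. Its interval lies below that of Anxa2, whose lower bound was 0.51, although the difference between the 2 genes was not tested.

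S100a11, a calcium-binding partner of annexins, was 11.65, 11.69, 11.79 and 11.56 on Control arrays 1 to 4. On Sca1-HGAL arrays 1 to 4 it was 12.09, 11.66, 11.50 and 11.84. The highest and the lowest of the 8 values were both in the Sca1-HGAL group, on arrays 1 and 3. The log2 fold was 0.10 (SE 0.12, limma adjusted p = 0.83), with -0.01 without Sca1-HGAL 1 and 0.19 without Sca1-HGAL 3, and the other S100a11 probe set had -0.02 (SE 0.13).

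S100a6, also called calcyclin, was 6.20, 6.29, 6.12 and 6.34 on Control arrays 1 to 4, and 7.66, 6.20, 6.53 and 6.57 on Sca1-HGAL arrays 1 to 4. Sca1-HGAL 1 stood above the rest, arrays 3 and 4 were slightly above the Control range, and array 2 was inside it. The log2 fold was 0.50 (SE 0.25, limma adjusted p = 0.57), and it was 0.20 without Sca1-HGAL 1.

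S100a4, a regulator of cell movement that binds non-muscle myosin, was 6.12, 6.05, 5.88 and 6.08 on Control arrays and 6.33, 6.19, 6.15 and 6.03 on Sca1-HGAL arrays, in the order of replicates 1 to 4. Sca1-HGAL 4 was inside the Control range and the other 3 were just above it. The log2 fold was 0.14 (SE 0.08, limma adjusted p = 0.61), and 0.09 without Sca1-HGAL 1. S100a4 and S100a6 both lie near log2 6, the floor used here for dim probe sets, and with no call of detection, small differences at that level cannot be told from background.

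Lgals3, which encodes galectin-3, was 8.17, 8.31, 8.39 and 8.50 on Control arrays 1 to 4, and 8.69, 8.95, 8.45 and 9.03 on Sca1-HGAL arrays 1 to 4. Sca1-HGAL arrays 1, 2 and 4 were above every Control array, and Sca1-HGAL 3 was inside the Control range. The means were 8.34 ± 0.14 (SD, n = 4) and 8.78 ± 0.26 (SD, n = 4), a log2 fold of 0.44 (SE 0.13, 95% interval 0.16 to 0.72) or 1.36-fold, at a limma adjusted p = 0.30. It was 0.50 without Control 2 and Control 4 and 0.55 without Sca1-HGAL 3.

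Lgals1, which encodes galectin-1, was 8.37, 8.63, 8.86 and 8.56 on Control arrays 1 to 4, and 10.23, 9.14, 7.82 and 8.76 on Sca1-HGAL arrays 1 to 4. Its Sca1-HGAL values ran from below to well above the Control range, with array 1 the highest and array 3 the lowest of all 8. The means were 8.60 ± 0.20 (SD, n = 4) and 8.99 ± 1.00 (SD, n = 4), which differ by 0.39 (SE 0.40) at a limma adjusted p = 0.81. It was -0.03 without Sca1-HGAL 1 and 0.78 without Sca1-HGAL 3, so single arrays set its size and its sign.

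Crip1, a small LIM-domain protein with zinc-binding fingers, was 10.62, 10.51, 10.39 and 10.83 on Control arrays 1 to 4, and 11.44, 10.71, 10.51 and 10.85 on Sca1-HGAL arrays 1 to 4. Sca1-HGAL 1 was clearly the highest, array 4 was barely above the Control range and arrays 2 and 3 were within it. The log2 fold was 0.29 (SE 0.18, limma adjusted p = 0.65), and 0.10 without Sca1-HGAL 1.

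Vim, the intermediate filament protein of lymphocytes and many mesenchymal cells, was 12.81, 12.77, 12.61 and 12.54 on Control arrays 1 to 4, and 12.98, 12.63, 12.89 and 12.70 on Sca1-HGAL arrays 1 to 4. The groups overlapped, with Sca1-HGAL 1 and 3 above the Control range. The log2 fold was 0.12 (SE 0.09, 95% interval -0.09 to 0.33) at a limma adjusted p = 0.74, and it was 0.06 without Sca1-HGAL 1.

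**Figure D1:**
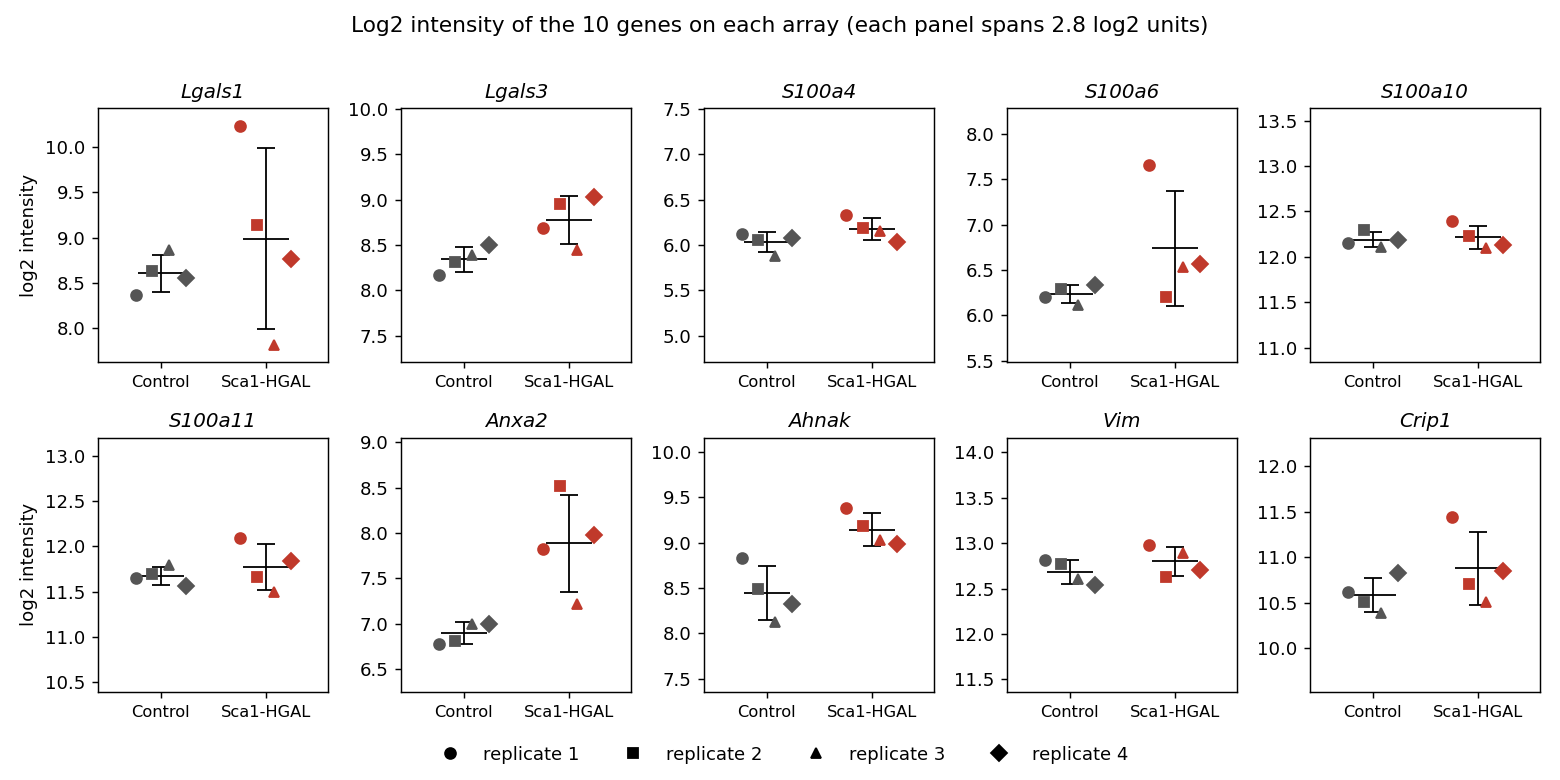
Log2 intensity (y axis) of each of the 10 genes on the 4 Control (grey) and 4 Sca1-HGAL (red) arrays, with the marker shape giving the replicate number and the bars the group mean ± SD. Every panel has the same span, and the Sca1-HGAL arrays lie wholly above the Control arrays only for Anxa2 and Ahnak, while Sca1-HGAL 1 stands high for Lgals1, S100a6 and Crip1.

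All 10 genes had a higher mean in Sca1-HGAL arrays, as did 56.1% of all probe sets, and the median log2 fold was 0.34 against 0.015 over all probe sets. An unadjusted limma p under 0.05 was reached by 3 genes in the higher direction, Anxa2, Ahnak and Lgals3, and by 0 in the lower, against 5.53% and 4.06% of all probe sets. None of the 10 passed after adjustment over all probe sets, with limma adjusted p-values from 0.14 to 0.95.

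The Sca1-HGAL arrays differed from each other more than the Control arrays did. The SD was larger in Sca1-HGAL for 9 of the 10 genes, as for 57.4% of all probe sets, and the median ratio of SDs was 2.02 against 1.14. Sca1-HGAL 1 had the highest of the 8 values for 8 genes, all but Lgals3 and Anxa2, where it was highest for 14.7% of all probe sets. Sca1-HGAL 3 had the lowest value of its group for 6 genes. The share of all probe sets lowest on that array was not computed, so nothing about the genes is read from this count. The mean of the 10 genes relative to their 8-array means was 0.55 on Sca1-HGAL 1, 0.19 on array 2, -0.13 on array 3 and 0.14 on array 4, against -0.23 to -0.16 on Control arrays.

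Without Sca1-HGAL 1, 7 of the 10 genes kept a higher mean, and the log2 folds of Lgals1, S100a10 and S100a11 were -0.03, -0.03 and -0.01. The median log2 fold was then 0.10, while Anxa2 had 1.01, Ahnak 0.63 and Lgals3 0.47. Without Control 2 and Control 4, all 10 were still higher in mean, from 0.05 for S100a11 to 1.00 for Anxa2, with a median of 0.38 and a lowest limma adjusted p of 0.53, when 0.00924% of all probe sets passed.

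**Figure D2:**
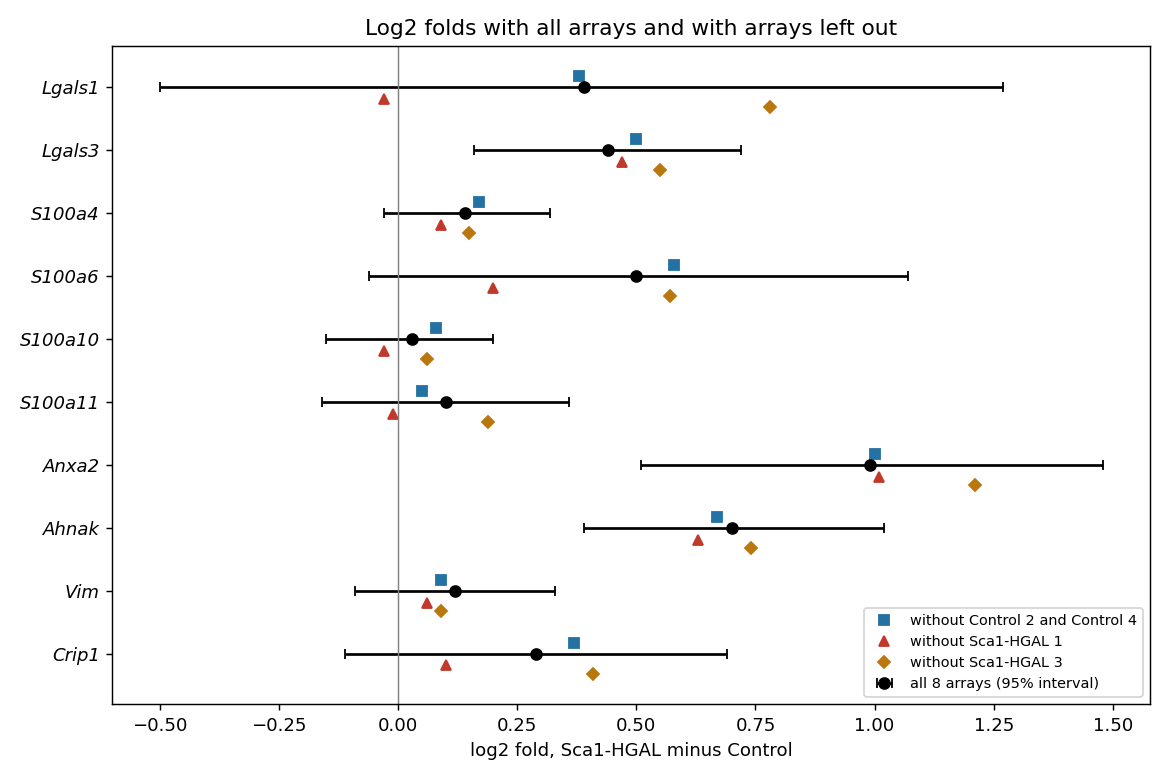
Log2 fold of each gene, Sca1-HGAL minus Control (x axis), with all 8 arrays (black, with limma's 95% interval), without Control 2 and Control 4 (blue), without Sca1-HGAL 1 (red) and without Sca1-HGAL 3 (ochre). Anxa2, Ahnak and Lgals3 have intervals above 0 before adjustment, and leaving out Sca1-HGAL 1 brings Lgals1, S100a10 and S100a11 to just below 0.

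Related genes were described through 7 lists with 79 different measured genes, of which 0 passed limma at an adjusted p under 0.05. At an unadjusted p under 0.05, 20 were higher and 4 lower, against 5.53% and 4.06% of all probe sets. Without Sca1-HGAL 3, when 0.185% of all probe sets passed, 2 of the 79 passed after adjustment, Cd80 at 1.78 (SE 0.15, limma adjusted p = 0.004) and Tbx21 at 1.12 (SE 0.14, adjusted p = 0.026) in log2 fold. The lists share genes with earlier descriptions of these data, so their counts are not independent of results already known.

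The galectin list had 9 other measured genes, one of them Lgals3bp, which encodes a galectin-3-binding glycoprotein and is no galectin. Their median log2 fold was 0.00, with 1 higher and 1 lower at an unadjusted p under 0.05. Lgals4 was 7.39 ± 0.16 (SD, n = 4) on Control and 7.75 ± 0.16 (SD, n = 4) on Sca1-HGAL arrays, and its groups did not overlap. Lgals9, a tandem-repeat galectin, was lower by mean, with a log2 fold of -0.34 (SE 0.10) and a limma adjusted p = 0.34. Lgals7 had 0.11 and Lgals12 0.09.

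The 12 other S100 genes had a median of 0.10, with 2 higher and 0 lower at an unadjusted p under 0.05. S100a1 had a log2 fold of 0.34 (SE 0.11), and S100a8, a neutrophil calprotectin subunit, had 0.64 (SE 0.29) with all arrays and 0.36 without Sca1-HGAL 1. S100a14 had 0.16 and S100z 0.20. In the RefSeq gene order S100a4 and S100a6 lie on chromosome 3 with S100a5 between them. S100a5, named for this place, had a log2 fold of -0.06, against 0.14 and 0.50 for the genes beside it. S100a11 and S100a10 lie next to each other farther along, with 56 protein-coding genes between them and the nearest S100 gene listed, S100a9.

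The 11 other annexin genes had a median of 0.13, with 1 higher and 0 lower at an unadjusted p under 0.05. Anxa6 had a log2 fold of 0.27 (SE 0.11), Anxa5, whose protein binds exposed phosphatidylserine, 0.28 (SE 0.13), and Anxa11 0.17 (SE 0.09). Without Sca1-HGAL 1, Anxa5 had 0.16 and Anxa11 0.08, and without Control 1 Anxa6 had 0.17. Anxa8 had 0.56 (SE 0.32), with Sca1-HGAL 2 at 7.41 and the other 3 arrays of its group at 5.67 to 5.90, and had 0.16 without that array. Anxa1 had -0.08 and Anxa4 -0.06, both chosen after their values were seen.

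Among 10 AHNAK and membrane repair genes the median log2 fold was 0.06, and 2 were higher and 1 lower at an unadjusted p under 0.05. Dysf, which encodes the membrane repair protein dysferlin, had a log2 fold of 0.23 (SE 0.08), with Sca1-HGAL arrays wholly above Control. Myof, its relative myoferlin, had -0.73 (SE 0.15, limma adjusted p = 0.14), with Sca1-HGAL arrays at 8.46 to 8.92 wholly below Control arrays at 9.27 to 9.90. Capn2, a calpain protease, had 0.40 (SE 0.12). Ahnak2 had 0.43 (SE 0.29), with Sca1-HGAL 1 at 8.94 and the other 3 at 7.47 to 7.53, whereas Ahnak itself was high on all 4. Without Sca1-HGAL 1, Ahnak2 had 0.07 and Dysf 0.15.

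The intermediate filament and cortex genes, 10 measured, had a median of 0.04, with Plec at 0.24 (SE 0.10) as the 1 gene at an unadjusted p under 0.05, and at 0.15 without Sca1-HGAL 1. Des had 0.09, Nes -0.07 and Flna 0.08. The 9 LIM domain genes had a median of 0.00, with 2 higher and 2 lower. Crip2, another cysteine-rich LIM protein, had a log2 fold of 0.24 (SE 0.08) and Pdlim1 0.59 (SE 0.22). Csrp2 had -0.67 (SE 0.13, limma adjusted p = 0.14), with its Sca1-HGAL arrays wholly below Control, and Csrp1 -0.31 (SE 0.11), which was -0.14 without Control 2 and Control 4.

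The list of other antigen-experienced lymphocyte genes had the largest median of the 7 lists, 0.41 over 18 genes. Of these, 16 had a positive log2 fold, 11 were higher at an unadjusted p under 0.05 and 0 lower, and 7 had groups that did not overlap, all higher. Over all probe sets the shares were 56.1% positive, 5.53% higher and 4.06% lower at that p, and 3.15% wholly higher. The list was chosen with earlier results of these data known, so its median and counts are a description only. For Tbx21, the transcription factor T-bet, the value was 0.99 (SE 0.16) at a limma adjusted p = 0.11, and for the costimulatory ligand Cd80 it was 1.46 (SE 0.28) at 0.13. Nt5e, the ectoenzyme CD73 of memory B cells, had 0.81 (SE 0.20), and the chemokine receptor Cxcr3 0.96 (SE 0.24). Cd80 had 10.15, 9.84, 8.57 and 9.55 on Sca1-HGAL arrays 1 to 4, against 7.84 to 8.28 on Control arrays. Sca1-HGAL 3 was thus its lowest Sca1-HGAL array, as for Anxa2 and Lgals3.

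**Figure D3:**
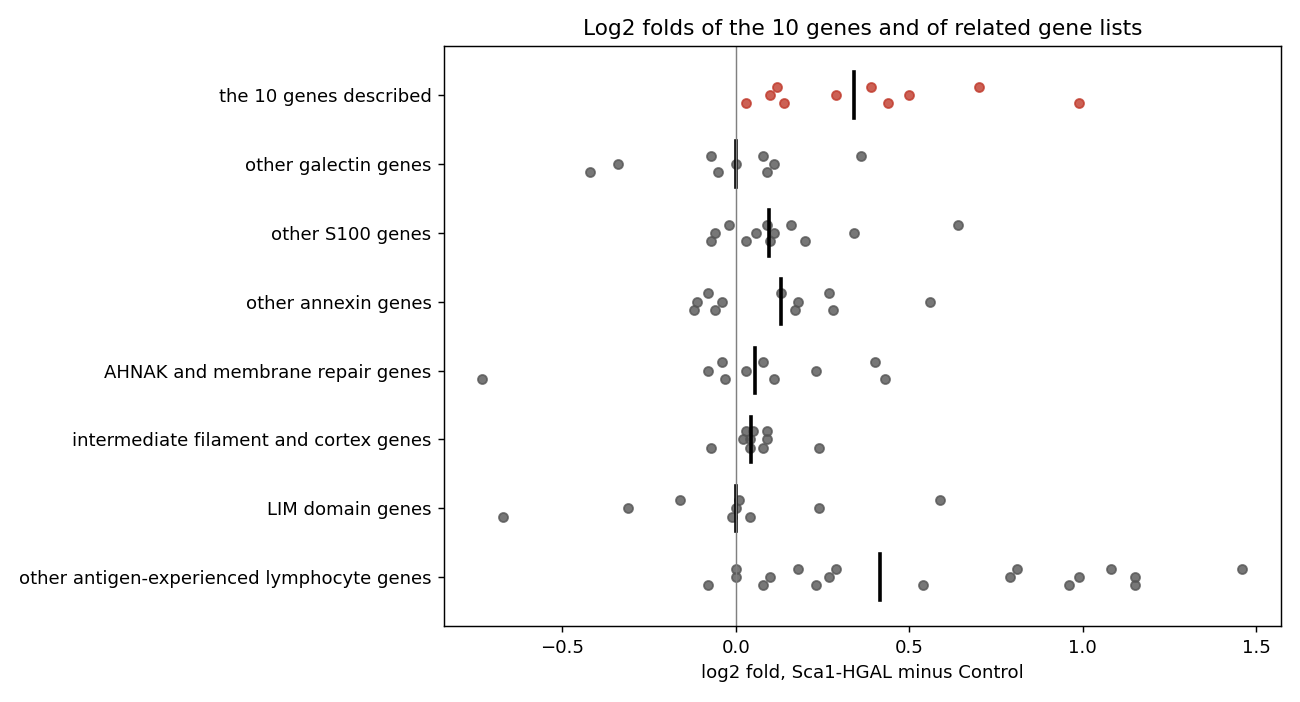
Log2 fold, Sca1-HGAL minus Control (x axis), of each measured gene of the 10 described (red) and of 7 related lists (grey, 1 point a gene, spread vertically for legibility), with a black bar at the median of each. The medians are 0.34 for the 10 genes and 0.41 for the other antigen-experienced lymphocyte genes, and between 0.00 and 0.13 for the 6 other lists. The genes and lists were chosen with earlier results of these data known.

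The profile of the 10 genes over the 8 arrays was set against that of 15714 other genes with a mean of at least log2 6. Likeness was the root mean square difference, in log2 units, from the mean centred profile of the 10 genes. The median over all genes compared was 0.275. The nearest were As3mt (0.053), Zbtb38 (0.056), Fras1 (0.061), Cryl1 (0.061), Gpr137b-ps (0.073), Rarg (0.075), Cebpzos (0.076), Slc22a23 (0.079), Entpd1 (0.080) and Mmp9 (0.082). Entpd1 encodes CD39, which acts on extracellular nucleotides ahead of the product of Nt5e, and Mmp9 is a matrix protease of neutrophils and one of the neutrophil markers used here. Crip1 was the member nearest to the mean profile, at 0.146, and Lgals1 the farthest, at 0.461. Anxa2, at 0.438, and S100a6, at 0.290, also lay beyond the median over all genes compared. Every member was farther from the mean profile than the nearest genes named above.

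Markers of other cell types varied over the arrays as well. Of 10 neutrophil markers 9 were at or above log2 6 on average in Control arrays, S100a8 being below. All 10 had a positive log2 fold, as did 56.1% of all probe sets, with a median of 0.38. At an unadjusted limma p under 0.05, 5 were higher and 0 lower, against 5.53% and 4.06% of all probe sets. Elane and Mmp9 lay wholly higher in Sca1-HGAL, as did 3.15% of all probe sets, and no neutrophil marker passed after adjustment. The mean level of that list was 6.31 to 6.98 on Control arrays, and 7.70, 7.15, 6.51 and 6.88 on Sca1-HGAL arrays 1 to 4, the same order of arrays as for Lgals1. The T cell markers, 8 measured of 10 and all above log2 6, had 7.39 to 7.82 on Control and 8.16, 7.80, 7.02 and 7.65 on Sca1-HGAL arrays, again in that order. Among Control arrays Lgals1, the neutrophil list and the T cell list were all highest on Control 3.

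The 7 plasma cell markers had means of 8.78 to 9.16 on Control and 9.41, 8.69, 8.72 and 8.99 on Sca1-HGAL arrays 1 to 4, and 3 of the 7 had a positive log2 fold. Among them, named after their values were seen, Sdc1, the plasma cell surface protein syndecan-1, was at -0.43 in log2 fold (SE 0.10, limma adjusted p = 0.22), with Sca1-HGAL 1 at 7.17 below every Control array. Irf4 had -0.19 (SE 0.21), and Jchain, the joining chain of secreted antibodies, 0.47 (SE 0.49) with all arrays and 0.05 without Sca1-HGAL 1. On Sca1-HGAL 1, Irf4 (11.02) was also below every Control array. Jchain (10.20), Prdm1 (8.84) and Mzb1 (11.37) went the other way and had their highest value of all arrays there. Xbp1 and Tnfrsf17 lay inside the Control range on that array. Macrophage and monocyte markers, 9 of 10 at or above log2 6 with Cd14 below, had 7.39 to 7.83 on Control arrays. On Sca1-HGAL arrays 1 to 4 the list had 7.61, 7.63, 7.41 and 7.89, the same order of arrays as for Lgals3. Of the 10 markers, 5 had a positive log2 fold, and the median was 0.02. Adgre1 of that list, which encodes an adhesion receptor of macrophages and was named after its values were seen, was higher in mean by 1.01 log2 units (SE 0.19, limma adjusted p = 0.12), with Sca1-HGAL arrays at 8.55 to 9.36 wholly above Control arrays at 7.54 to 8.14. NK cell markers, with Klrb1c and Klrk1 below log2 6, had 6.23 to 6.83 and 5.88 to 6.44. Of these 7, 1 had a positive log2 fold, and 0 were higher and 2 lower at an unadjusted p under 0.05. Dendritic cell markers had 6.88 to 7.24 and 6.81 to 7.0, with 3 higher and 3 lower at an unadjusted p under 0.05. Of these, Itgax (0.48) and Zbtb46 (0.22) lay wholly higher in Sca1-HGAL, Clec9a (-0.34), Siglech (-0.68) and Ccr9 (-0.83) wholly lower, and Flt3 (0.41) overlapped. Stromal and endothelial markers, with Kdr and Emcn below log2 6, had 7.31 to 7.36 and 7.32 to 7.48. All 8 had a positive log2 fold, with a median of 0.05 and 0 at an unadjusted p under 0.05. From highest to lowest, the Sca1-HGAL arrays ran 1, 2, 4 and 3 for the neutrophil, T cell and NK lists. Lgals1, S100a10 and the mean of the 10 genes had that order too. Ahnak and S100a4 had 1, 2, 3 and 4. Anxa2 had 2, 4, 1 and 3, as did the dendritic cell list, and S100a6 shared 1, 4, 3 and 2 with the plasma cell list. These orders of 4 arrays were set side by side after the values were seen, and nothing about cell types is read from them. The part of other cell types in the levels of the 10 genes was not tested, and in RNA of sorted cells more cells of a type cannot be told from more RNA per cell.

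**Figure D4:**
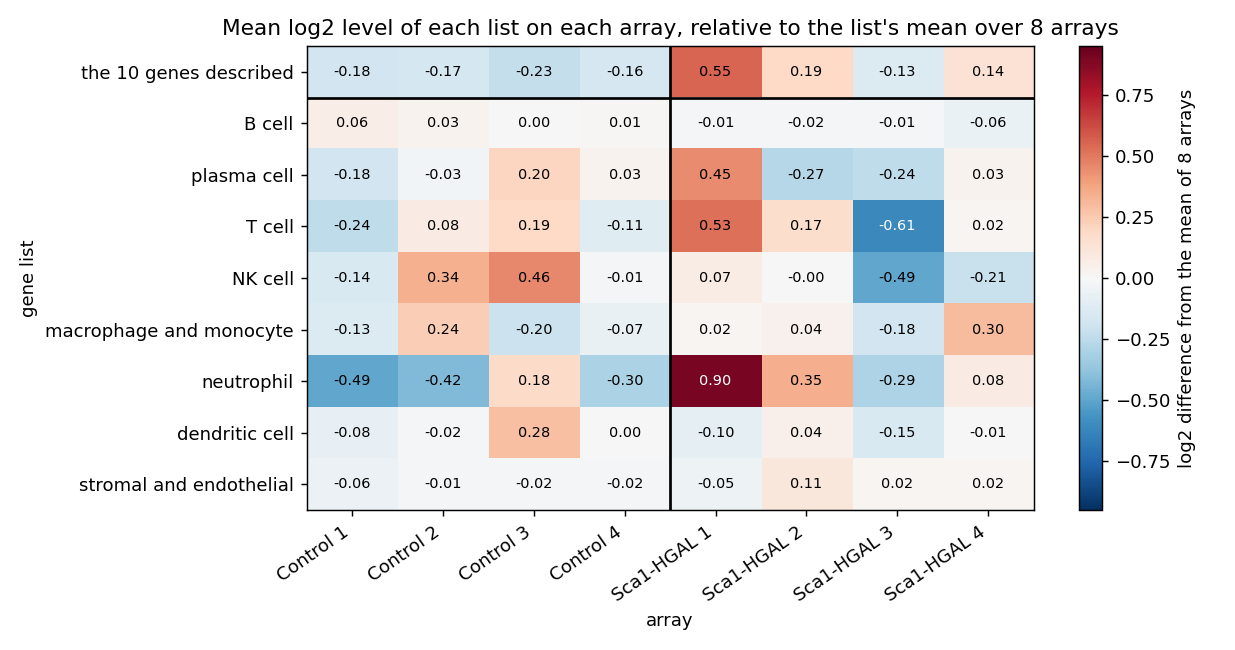
Mean log2 level of the 10 genes and of 8 cell type marker lists (rows) on each array (columns), as the difference from that row's mean over the 8 arrays, in log2 units by colour and number. Sca1-HGAL 1 has 0.55 for the 10 genes, 0.90 for the neutrophil and 0.53 for the T cell list, while the B cell row stays between -0.06 and 0.06.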

How the data were processed

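The submitters' processing notes name RMA as the authors' method for the deposited intensity values. The version, annotation and build, not given in the sources used here, are unknown. Values were linear, from 4.94 to 24302; their log2 was used without pseudocount or filter. RMA draws arrays to a common distribution and shrinks folds of dim probe sets. Of 34760 rows, 21640 had 1 gene symbol in the platform table, 1321 several and 11799 none. Groups and replicate numbers came from the sample titles. The test was limma (version 3.58.1, under R 4.3.3), fitted on both groups without covariates by lmFit and eBayes. Its two-sided p-values were adjusted by Benjamini-Hochberg over all 21640 probe sets, and the step was checked on simulated data. The members and lists were chosen with earlier results of these data known. Named beside the 10 genes were up to 4 genes per related list with the smallest p, and the 10 genes nearest in profile. Promoters were RefSeq sequences of GRCm38.p6. The alternatives were other normalisations, a filter, array weights, a replicate block, another prior, averaged probe sets and left-out arrays.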

Additional observations from a re-analysis of the deposited data

Results flagged for a closer look

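In 94 groups of 4 values checked, a single array stood apart from the rest of its group 5 times, where chance gives about 4.7, and none of these was for one of the 10 genes. Anxa8 was high on Sca1-HGAL 2 (7.41), Ahnak2 on Sca1-HGAL 1 (8.94) and Des on Sca1-HGAL 3 (6.16). Lgals9 was low on Control 1 (10.10) and Capn2 on Control 3 (8.32).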

How the results depend on the processing

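Of 160 values of the 10 log2 folds under 16 alternative settings, 4 changed sign and 1 passed the threshold, Anxa2 without Sca1-HGAL 3 (1.21, limma adjusted p = 0.026). S100a10 was -0.02 with array weights and -0.03 without Sca1-HGAL 1, where Lgals1 was also -0.03 and S100a11 -0.01. Over single left-out arrays, Lgals1 ran from -0.03 to 0.78, S100a10 from -0.03 to 0.07 and S100a11 from -0.01 to 0.19. The number of the 10 genes with a higher mean ran from 7 to 10 over single left-out arrays. The count of called probe sets, 1 in all, was 12 with array weights, 6 with the replicate block, 2 without Control 2 and Control 4, 9 at an adjusted p under 0.10, and 1 to 40 with single arrays left out. Related-list genes at an unadjusted p under 0.05, 24 in all, were 15 without Control 2 and Control 4 and 19 to 26 with single arrays left out. The cause of these changes was not tested. Same-numbered arrays were not treated as pairs, and the labels give no litter or batch. Their deviations from group means correlated at -0.16, 0.05, -0.13 and -0.01, which cannot show whether the samples were paired. With the replicate block the lowest limma adjusted p among the 10 genes was 0.093. Dim probe sets and 4 arrays a group limit what can be seen.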
